A study of Homo sapiens with 5 samples.

Results

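The levels of 45 genes that encode chromatin modifiers were examined in *MTSS1* knockout and control cells of the human cell line TF-1. The genes were taken by symbol from a list of enzymes and complex subunits that are mutated or active in acute myeloid leukemia (AML), a rule that uses no measured value. All 45 were among the 27328 genes of the deposited table of raw read counts, and all 45 were among the 14391 genes that passed a filter on low counts and were tested. By role, 3 genes encode DNA methyltransferases and 3 encode TET enzymes, 9 belong to Polycomb complexes, 5 to H3K4 methyltransferase complexes, 4 are H3K79 or H3K36 methyltransferases, 6 are histone demethylases, 4 are histone deacetylases, 4 are histone acetyltransferases, 4 belong to cohesin, and 3 are chromatin remodellers.

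TF-1 is an AML line of erythroid origin that depends on cytokines such as GM-CSF for growth. The cells of both groups carried lentivirally delivered Cas9, GFP and an sgRNA, which in the 2 control pools (sgCtrl 1 and 2) targeted the *renilla luciferase* gene and in the 3 knockout pools the *MTSS1* gene, with a different sgRNA in each (named sgMTSS1_1, sgMTSS1_2 and sgMTSS1_3). *MTSS1* encodes a protein that bends membranes and binds actin, and the study examined its loss in connection with the response to chemotherapy. Each library was prepared from 1 pool of 4 single-cell clones, so a replicate is a pool, p-values measure the spread between pools, and in the knockout group the sgRNA and the pool cannot be told apart.

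Counts were obtained from the 3′ ends of polyadenylated transcripts and are given as CPM, which are counts divided by the library total and put on a common scale, adjusted with the trimmed mean of M values (TMM). Library totals ranged from 2849979 to 8854899 counts, and each of the 3 knockout libraries had more counts than either control library, so depth and condition cannot be told apart. A count of 3, the lowest level considered detectable, corresponded to between 0.389 and 0.938 CPM, below every value of the 45 genes. All 12 markers of the cell line that were looked up, among them *CD34*, *CD33*, *KIT*, *GATA1*, *TAL1* and *KLF1*, passed the filter. In 4 of the 12 every knockout pool lay above both control pools, including *CD34* (132 and 112 CPM in control and 214, 345 and 168 CPM in knockout pools), *KIT* and *KLF1*. In 1, *GATA1*, every one lay below, and none of these had an adjusted p-value under 0.05. Of all tested genes, 22.2% were above and 19.2% below in this way. The control pools were far apart for the markers *HBG1* (12.5 and 119.8 CPM) and *HBG2* (286 and 819 CPM). Their knockout pools were at 13.0 to 101.4 CPM and 42.1 to 344 CPM. Of 9 genes listed as markers of other cell types, 7 were in the table and 1 passed the filter. This was *PECAM1*, listed for endothelium, at 116 to 144 CPM in control and 199 to 238 CPM in knockout pools. The pools were made from single-cell clones of TF-1 alone, and the presence of other cells was not tested. The 7 markers summed to 120.1 to 146 CPM in control and 203 to 241 CPM in knockout pools, nearly all of it from *PECAM1*, and the part of this difference in the results was not tested. *MTSS1* mRNA was at 204 and 87.9 CPM in control and 104, 139 and 49.9 CPM in knockout pools, with overlapping groups (log2-fold change −0.58, SE 0.47; adjusted p = 0.494 in the quasi-likelihood model of edgeR, corrected over all tested genes by the Benjamini-Hochberg method), so that the mRNA gave no check of the labels, although the study verified loss of the protein in the clones by immunoblot. In bulk RNA, fewer cells with a transcript and less transcript per cell cannot be told apart.

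Chromatin modifiers write, remove or read chemical marks on DNA and histones, or move nucleosomes and hold DNA in loops. Polycomb repressive complex 2 methylates H3K27 and is associated with gene silencing, whereas KMT2 complexes methylate H3K4 at active genes. Acetyltransferases and deacetylases set the acetylation of histones, with deacetylases acting mostly within corepressor complexes. In AML, many of these genes carry recurrent mutations or fusions, and others are targets of drugs.

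Of the 45 genes, *HDAC3* was the only one that differed between knockout and control pools at thresholds of 0.05 for the adjusted p-value and 1 for the log2-fold change, and none was lower at the corresponding threshold of −1. DESeq2 called 3 of the 45 genes higher (*EED*, *HDAC3* and *KAT2A*) and limma-voom *HDAC3* alone, and neither called any lower. Among all tested genes, 4.17% were higher and 1.01% were lower by the same rule. Before adjustment, 9 of the 45 genes (20.0%) had a p-value under 0.05, with 5 higher and 4 lower in knockout pools, against 23.3% of all tested genes. The log2-fold changes ranged from −0.92 for *KMT2D* to 2.08 for *HDAC3*, with a median of −0.12 against −0.03 over all tested genes, and 27 of the 45 were below 0. In 8 genes (17.8%) every knockout pool lay above both control pools, where 22.2% of all tested genes did so. In 14 genes (31.1%) every knockout pool lay below both control pools, where the background was 19.2%. The other 23 genes overlapped between the groups. With control pool 1 left out, 23 genes (51.1%) had all knockout pools below the remaining control pool, against 36.1% of all tested genes. All of them were above it in 11 genes (24.4%), against 38.3%. With control pool 2 left out, 20 genes (44.4%) had all knockout pools below, against 34.7%, and 14 (31.1%) had all of them above, against 36.8%. The share below changed with the filter, for a reason that was not tested. With the filter removed, 8 genes (17.8%) were below, against 13.1% of all genes. With at least 10 counts required in every library, 8 were below, against 18.1%.

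**Figure D1:**
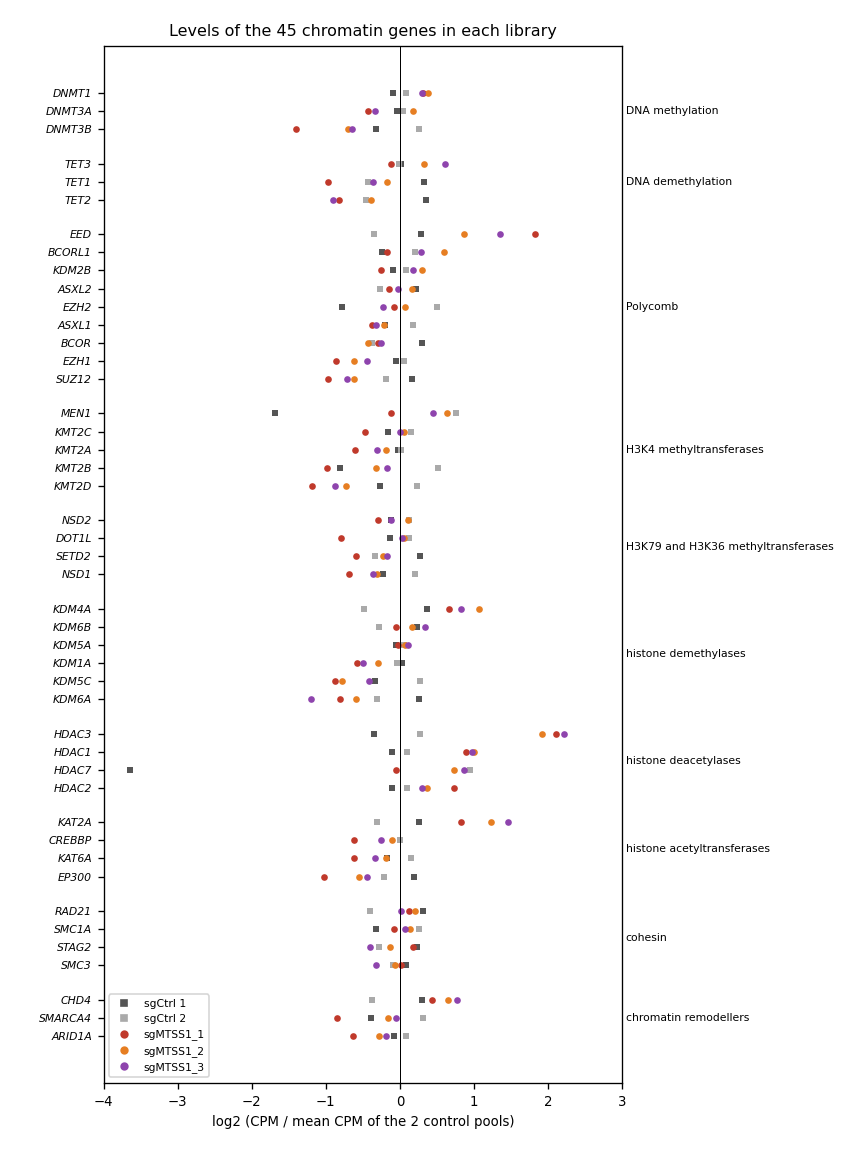
Level of each of the 45 genes in each library, as the log2 of its CPM over the mean CPM of both control pools, grouped by role; squares are control pools and circles knockout pools. The 3 *HDAC3* circles lie farthest to the right, and control pool 1 stands apart to the left for *HDAC7* and *MEN1*.

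**Figure D2:**
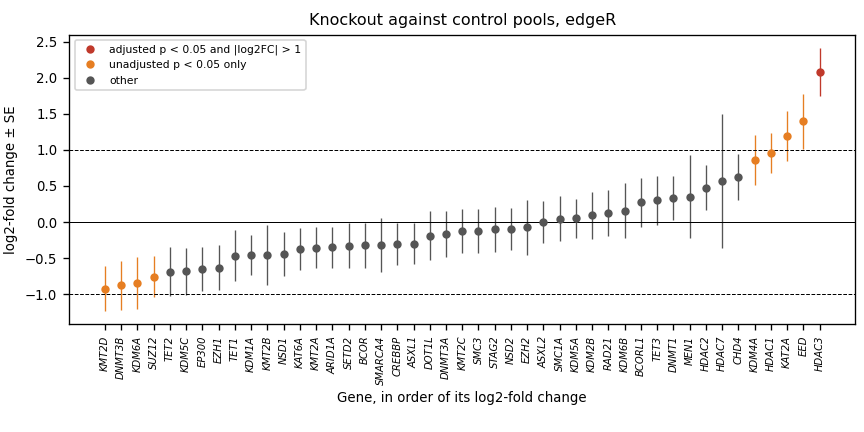
Log2-fold change (knockout over control, with its SE) of the 45 genes in ascending order; red marks the gene past both thresholds, orange those with an unadjusted p-value under 0.05 alone, and dashed lines stand at −1 and 1. The values run from −0.92 to 2.08, and *HDAC3* alone is red.

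The deacetylases held the largest difference. Because the 3 class I enzymes *HDAC1*, *HDAC2* and *HDAC3* all had their knockout pools above both control pools, their promoter regions are given for comparison. The RefSeq sequences, on GRCh38.p14, cover 250 bases before to 50 bases after the transcription start, 5′ to 3′ on the gene's strand. *HDAC1* is on chromosome 1 (chr1:32291833-32292132, plus strand), *HDAC2* on chromosome 6 (chr6:113971099-113971398, minus strand), and *HDAC3* on chromosome 5 (chr5:141636800-141637099, minus strand). Capitals mark GC boxes, the sequence GGGCGG or its reverse complement CCGCCC, which is the core of the element bound by SP1 and related factors.
HDAC1: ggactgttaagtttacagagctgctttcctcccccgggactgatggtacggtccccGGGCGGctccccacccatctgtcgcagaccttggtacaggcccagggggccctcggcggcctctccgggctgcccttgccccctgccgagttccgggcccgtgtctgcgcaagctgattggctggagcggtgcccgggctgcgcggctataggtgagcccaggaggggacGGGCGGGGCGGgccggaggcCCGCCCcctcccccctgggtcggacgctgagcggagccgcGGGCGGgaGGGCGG
HDAC2: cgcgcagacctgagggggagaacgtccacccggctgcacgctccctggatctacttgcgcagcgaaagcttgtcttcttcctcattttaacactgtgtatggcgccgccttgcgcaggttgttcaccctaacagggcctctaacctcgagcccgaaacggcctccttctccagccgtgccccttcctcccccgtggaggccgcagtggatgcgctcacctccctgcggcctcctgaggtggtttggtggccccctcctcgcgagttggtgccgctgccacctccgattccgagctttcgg
HDAC3: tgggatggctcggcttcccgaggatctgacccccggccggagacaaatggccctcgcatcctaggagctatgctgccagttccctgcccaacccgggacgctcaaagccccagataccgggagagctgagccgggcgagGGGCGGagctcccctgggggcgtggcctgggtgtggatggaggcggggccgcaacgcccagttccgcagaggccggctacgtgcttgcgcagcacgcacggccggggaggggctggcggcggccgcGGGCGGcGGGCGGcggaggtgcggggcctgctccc

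The *HDAC1* window held 6 GC boxes, 2 of which overlapped, the *HDAC3* window held 3, and the *HDAC2* window had none. All 3 windows were rich in G and C, at 73.7%, 64.0% and 74.0% for *HDAC1*, *HDAC2* and *HDAC3*, with 28, 24 and 31 CG dinucleotides. A window was available for 42 of the 45 genes, which had a median of 68.2% GC and 28.5 CG dinucleotides against 58.3% and 14 over 27305 promoters. A GC box was present in 28 of the 42 (66.7%) and in 44.6% of all promoters. On either strand, the ETS core CCGGAAG was found in 6 (14.3%, against 10.7%), the E box CACGTG in 6 (14.3%, against 7.43%), the CCAAT box in 12 (28.6%, against 35.7%, 1 match being in *HDAC1*), and the TATA box TATAAA in 0 (against 11.95%). The 27305 promoters were not limited to the 14391 tested genes, whereas all 45 genes were tested, so these shares compare unlike sets. The matches describe letters in a window and not bound sites.

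*HDAC3*, the catalytic subunit of the NCOR and SMRT corepressor complexes, was at 32.5 and 50.1 CPM in control pools 1 and 2 and at 178 (sgMTSS1_1), 156 (sgMTSS1_2) and 192 CPM (sgMTSS1_3) in the knockout. The knockout pools were all above the higher control pool, with means of 175 ± 17.7 CPM (SD, n = 3) in knockout and 41.3 ± 12.4 CPM (SD, n = 2) in control. *HDAC3* (ENSG00000171720) was thus 4.24-fold higher by group means (log2-fold change 2.08, SE 0.33, adjusted p = 0.0131 in the same edgeR model). The call was lost without the sgMTSS1_1 pool (adjusted p = 0.0591) or the sgMTSS1_3 pool (adjusted p = 0.0530) but not without the sgMTSS1_2 pool or either control pool, at log2-fold changes between 1.82 and 2.46 over all 15 alternative analyses. The gene spans chr5:141620876-141636849 on the minus strand.

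*HDAC1*, which works in the SIN3, NuRD and CoREST complexes, was at 63.5 and 73.3 CPM in control and at 127, 137 and 134 CPM in knockout pools. The groups were separate and the spread within each was small, with means of 68.4 ± 6.96 (SD, n = 2) and 133 ± 5.46 CPM (SD, n = 3), but the adjusted p-value missed the threshold (log2-fold change 0.96, SE 0.28, adjusted p = 0.0822). Of the 15 alternatives, DESeq2 alone gave an adjusted p-value under 0.05 (0.0378), at a log2-fold change of 0.94, under the threshold of 1. *HDAC2*, its close paralogue in the same complexes, was at 255 and 294 CPM in control and at 454, 353 and 338 CPM in knockout pools. The sgMTSS1_1 pool was the highest, and the difference did not pass (log2-fold change 0.48, SE 0.31, adjusted p = 0.390). Summed over *HDAC1*, *HDAC2* and *HDAC3*, the level was 350.5 and 417 CPM in control and 759, 646 and 664 CPM in knockout pools. The means of the sum were 384 ± 47.0 (SD, n = 2) and 690 ± 60.4 CPM (SD, n = 3). Reads counted once per transcript end allow this sum, and *HDAC2* was its largest part in each library. The log2 ratio of *HDAC1* to *HDAC2* was −2.004 in control pool 1, −2.001 in control pool 2 and −1.84, −1.36 and −1.33 in the knockout, a mean difference of 0.49 with groups that did not overlap.

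*HDAC7*, a class IIa deacetylase that acts chiefly as a scaffold for corepressors, differed most between pools of the same group. It was at 244 CPM in control pool 1 and 5864 CPM in control pool 2, while the knockout pools were at 2955, 5072 and 5540 CPM. Control pool 1 was lower than all other libraries, with 781 counts of *HDAC7* against 19678 to 31844, and control pool 2 was the highest of all 5. In control pool 1 the gene took 0.0274% of the counts and ranked at place 557, in control pool 2 it took 0.577% and ranked at place 10, and in the knockout pools it took 0.257% to 0.549%. The 24.0-fold difference between the control pools was large even among all tested genes, of which 4 had a larger ratio of control pool 2 to control pool 1. The log2-fold change was 0.57 with a large SE of 0.93 (adjusted p = 0.763); it was −0.36 without control pool 1 and 4.24 without control pool 2 (adjusted p = 0.00635), so the direction was set by the control pool used. The last 30 bases of *HDAC7* overlap *SLC48A1* on the other strand, which was at 141 and 145 CPM in the control pools and did not share the difference between them.

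**Figure D3:**
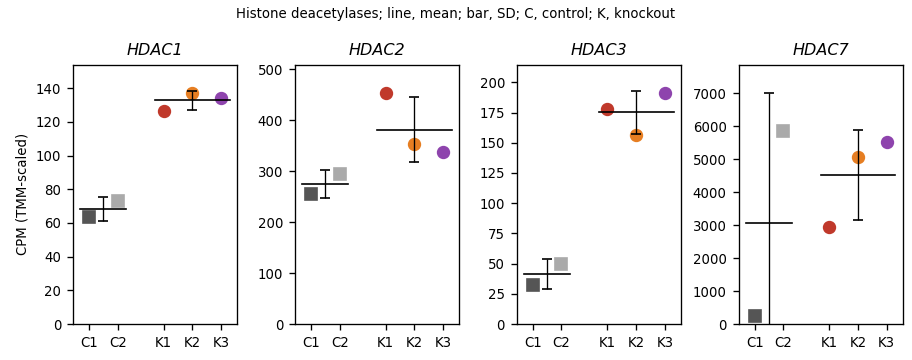
CPM of the 4 histone deacetylases in control pools (C1, C2, squares) and knockout pools (K1 to K3, circles); horizontal lines are group means and bars the SD, which for *HDAC7* in control is cut off at the axis floor. *HDAC1* and *HDAC3* are separate between the groups, and *HDAC7* is at 244 CPM in C1 and 5864 CPM in C2.

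Among the acetyltransferases, *KAT2A* was higher in the knockout and the others were lower, none past the threshold. *KAT2A*, the GCN5 acetyltransferase of the SAGA complex and a dependency of AML cells, was at 22.8 and 15.5 CPM in control and 33.9, 45.1 and 52.7 CPM in knockout pools. The gene (ENSG00000108773) spans chr17:42113111-42121367 on the minus strand. The groups were separate, at a log2-fold change of 1.19 (SE 0.35, adjusted p = 0.0792), and the adjusted p-value passed in DESeq2, without a filter on low counts and without control pool 1. *EP300*, a coactivator with histone acetyltransferase activity, was at 139.8 and 106 CPM in control and 60.4, 83.4 and 90.6 CPM in knockout pools (log2-fold change −0.65, SE 0.31, adjusted p = 0.234). Its paralogue *CREBBP* was at 105 CPM in both control pools and at 68.6, 98.0 and 88.0 CPM in knockout pools (log2-fold change −0.31, SE 0.29, adjusted p = 0.564). *KAT6A*, a MYST family enzyme fused to *CREBBP* in some AML, was at 112 and 140.4 CPM against 82.0, 111 and 99.7 CPM (log2-fold change −0.37, SE 0.29, adjusted p = 0.479), the sgMTSS1_2 pool being only just below control pool 1. For all 3 genes every knockout pool lay below both control pools, and the log2 ratio of *CREBBP* to *EP300* overlapped between the groups.

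The 9 Polycomb genes had log2-fold changes of both signs, and none passed the threshold. *EED*, the PRC2 subunit that binds the H3K27 trimethyl mark, was at 47.2 and 30.4 CPM in control and 137, 70.4 and 98.8 CPM in knockout pools. All knockout pools were above control, with the sgMTSS1_1 pool the highest, and the log2-fold change of 1.40 was the second largest of the 45 (SE 0.38, adjusted p = 0.0639). The gene (ENSG00000074266) spans chr11:86201212-86278813 on the plus strand. The adjusted p-value of *EED* passed in DESeq2, without a filter, with the pool number as a block and without control pool 1. *SUZ12*, the scaffold of the same complex, was at 241 and 188 CPM in control and 109.7, 139.7 and 131 CPM in knockout pools. Here every knockout pool was below control, at a log2-fold change of −0.76 (SE 0.29, adjusted p = 0.155).

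The catalytic subunits of PRC2 differed in their spread. *EZH1*, the less active methyltransferase that prevails in resting cells, was at 25.0 and 27.1 CPM in control and 14.4, 17.0 and 19.1 CPM in knockout pools, with separate groups (log2-fold change −0.63, SE 0.31, adjusted p = 0.260). *EZH2*, the enzyme of dividing cells, was at 58.2 and 143 CPM in control, so the control pools enclosed the knockout pools at 94.9, 106 and 85.4 CPM (log2-fold change −0.08). The log2 ratio of *EZH2* to *EZH1* was 1.22 and 2.40 in control and 2.72, 2.64 and 2.16 in knockout pools, and the groups overlapped. Summed over *EZH1*, *EZH2*, *EED* and *SUZ12*, the level was 371 and 388 CPM in control and 356, 333 and 334 CPM in knockout pools. Every knockout pool of the sum lay below both control pools, with *EED* and *SUZ12* separated in opposite directions.

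*ASXL1*, a partner of the BAP1 deubiquitinase and often truncated in AML, was at 103.5 and 134 CPM in control and 91.8, 102.9 and 95.5 CPM in knockout pools. The sgMTSS1_2 pool lay just under control pool 1, and the difference was small (log2-fold change −0.30, SE 0.28, adjusted p = 0.568). Its relative *ASXL2* had equal means of 77.4 CPM in both groups (SD 18.4, n = 2, in control and 8.35, n = 3, in knockout). The genes of the variant PRC1 complex overlapped as well. *BCOR* had a control mean of 46.6 ± 15.0 CPM (SD, n = 2) and a knockout mean of 37.2 ± 2.31 CPM (SD, n = 3), and *BCORL1* of 42.1 ± 9.14 and 50.9 ± 13.2 CPM. *KDM2B*, which recruits the complex to CpG islands, had means of 22.2 ± 1.83 and 23.7 ± 4.53 CPM.

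Of the H3K4 methyltransferase genes, *KMT2D* had the most negative log2-fold change of all 45. *KMT2D*, an enzyme of enhancer H3K4 monomethylation, was at 42.2 and 59.6 CPM in control and at 22.3, 30.7 and 27.7 CPM in knockout pools. The groups were separate, with means of 50.9 ± 12.3 (SD, n = 2) and 26.9 ± 4.24 CPM (SD, n = 3), at a log2-fold change of −0.92 (SE 0.31, adjusted p = 0.113). *KMT2D* (ENSG00000167548) spans chr12:49018975-49060794 on the minus strand. *KMT2A*, the gene rearranged in MLL leukemias, was at 204 and 210.1 CPM in control and 136, 183 and 167 CPM in knockout pools. Both control pools were above all knockout pools (log2-fold change −0.36, SE 0.29, adjusted p = 0.493). *KMT2C*, the close relative of *KMT2D*, had a control mean of 128 ± 19.4 CPM (SD, n = 2) and a knockout mean of 117 ± 22.1 CPM (SD, n = 3). The control pools were far apart for the remaining 2 genes, described next.

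In 4 of the 45 genes (8.89%) the control pools differed by more than 2-fold, against 26.8% of all tested genes, and in all 4 control pool 2 was the higher. The 45 genes had a median level of 97.4 CPM, against 15.8 CPM over all tested genes, and the part of level in these shares was not tested. The 4 genes are described because of the spread between their control pools and were thus chosen after their values were seen. Besides *HDAC7* and *EZH2*, they were *MEN1*, which encodes menin, the cofactor that brings *KMT2A* complexes to chromatin, and *KMT2B*, an H3K4 methyltransferase that also binds menin. *MEN1* was at 17.5 CPM in control pool 1 and 95.4 CPM in control pool 2, and the knockout pools were at 52.0, 87.9 and 76.7 CPM. Its log2-fold change was 0.35 (SE 0.57, adjusted p = 0.760), but −0.39 without control pool 1 and 2.07 without control pool 2 (adjusted p = 0.0285). *KMT2B* was at 76.6 and 192 CPM in control and 67.7, 107 and 119 CPM in knockout pools, with a log2-fold change of −0.45 (SE 0.42, adjusted p = 0.559) that was 0.38 without control pool 2. Accordingly, the log2 ratio of *KMT2A* to *KMT2B* was 1.41 in control pool 1 and 0.13 in control pool 2, which enclosed the knockout pools at 1.01, 0.77 and 0.48.

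All 4 genes for H3K79 and H3K36 methyltransferases had log2-fold changes below 0, from −0.44 to −0.09, and 3 of them overlapped. *NSD1*, which dimethylates H3K36 and is fused to *NUP98* in childhood AML, was at 223 and 299.8 CPM in control and 162, 212 and 204 CPM in knockout pools. It was the only one of the 4 with separate groups (log2-fold change −0.44, SE 0.30, adjusted p = 0.416). *SETD2*, the H3K36 trimethylase, had means of 152 ± 45.5 (SD, n = 2) and 122 ± 18.3 CPM (SD, n = 3), *DOT1L*, the H3K79 methyltransferase, of 39.0 ± 4.72 and 34.3 ± 10.3 CPM, and *NSD2*, an H3K36 dimethylase, of 214 ± 25.5 and 201 ± 28.7 CPM.

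Among the histone demethylases, *KDM4A* was higher and *KDM6A*, *KDM5C* and *KDM1A* were lower in all knockout pools, and none passed the threshold. *KDM4A*, which removes methyl groups from H3K9 and H3K36, was at 70.4 and 39.0 CPM in control and 86.3, 115 and 96.7 CPM in knockout pools (log2-fold change 0.86, SE 0.34, adjusted p = 0.169). It was called only when control pool 1 was left out. *KDM6A*, the X-linked H3K27 demethylase UTX, was at 23.8 and 16.1 CPM in control and 11.4, 13.2 and 8.70 CPM in knockout pools (log2-fold change −0.84, SE 0.36, adjusted p = 0.194). The counts of *KDM6A* were low, and the gap between the nearest pools of the groups was 13.2 to 16.1 CPM. Its relative *KDM6B* overlapped, with means of 9.04 ± 2.25 (SD, n = 2) and 10.1 ± 1.40 CPM (SD, n = 3).

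*KDM5C*, an X-linked H3K4 demethylase, was at 26.0 and 39.3 CPM in control and 17.8, 19.0 and 24.4 CPM in knockout pools (log2-fold change −0.68, SE 0.33, adjusted p = 0.248). *KDM1A*, the H3K4 demethylase LSD1 that is a drug target in AML, was at 96.3 and 91.8 CPM in control and 62.8, 76.5 and 66.6 CPM in knockout pools (log2-fold change −0.45, SE 0.27, adjusted p = 0.357). The control pools of *KDM1A* were nearly equal and the groups were separate. *KDM5A*, an H3K4 demethylase fused to *NUP98* in some AML, had close group means, of 152 ± 8.42 CPM (SD, n = 2) and 158 ± 7.94 CPM (SD, n = 3).

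The DNA methyltransferases had log2-fold changes of both signs, and none passed the threshold. *DNMT3B*, an enzyme of de novo methylation, was at 107 and 161 CPM in control and 50.8, 82.5 and 85.3 CPM in knockout pools. All knockout pools were below control, with the sgMTSS1_1 pool the lowest (log2-fold change −0.88, SE 0.33, adjusted p = 0.155). *DNMT3A*, the de novo enzyme mutated in AML, had a control mean of 27.6 ± 1.005 CPM (SD, n = 2) and a knockout mean of 24.5 ± 5.83 CPM (SD, n = 3). The log2 ratio of *DNMT3A* to *DNMT3B* was −1.996 and −2.504 in control and −1.31, −1.40 and −1.96 in knockout pools, a mean difference of 0.69, with the sgMTSS1_3 pool close to control pool 1. *DNMT1*, the maintenance enzyme, was at 537 and 605 CPM in control and 709, 741 and 704 CPM in knockout pools, with separate groups (log2-fold change 0.33, SE 0.31, adjusted p = 0.561).

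For the TET enzymes, which oxidise 5-methylcytosine, the groups overlapped in all 3 genes. *TET2*, mutated in AML, had a control mean of 70.2 ± 27.2 CPM (SD, n = 2) and a knockout mean of 43.6 ± 8.77 CPM (SD, n = 3), with a log2-fold change of −0.69 (SE 0.34, adjusted p = 0.259). *TET1* had a log2-fold change of −0.46 and *TET3* of 0.30. Mean control levels were 84.9 ± 30.7 CPM (SD, n = 2) for *TET1* and 19.2 ± 0.221 CPM for *TET3*.

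The 4 cohesin genes, whose products form the ring that holds sister chromatids and loops of DNA, had the smallest differences of any role. Their log2-fold changes ranged from −0.12 to 0.12, and all 4 overlapped between the groups. Summed over the 4, the level was 1415 and 1288 CPM in control and 1386, 1374 and 1204 CPM in knockout pools. *SMC1A* and *SMC3* encode the arms of the ring, *RAD21* the subunit that closes it and *STAG2* a subunit bound to *RAD21*. *SMC1A* had means of 332 ± 92.5 (SD, n = 2) and 342 ± 25.8 CPM (SD, n = 3), *SMC3* of 576 ± 48.7 and 529.7 ± 62.6 CPM, *RAD21* of 238 ± 81.0 and 258 ± 17.0 CPM, and *STAG2* of 206 ± 52.1 and 192 ± 38.2 CPM. The log2 ratio of *STAG2* to its paralogue *STAG1* was 2.07 ± 0.14 (SD, n = 2) in control and 2.06 ± 0.25 (SD, n = 3) in knockout pools. The SE of the log2-fold change was 0.31 for *SMC1A* and 0.32 for *RAD21*, so a small difference in these genes was not detectable at this depth and number of pools.

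Of the remodellers, *CHD4*, the helicase of NuRD, was at 111 and 69.4 CPM in control and 122, 142 and 154 CPM in knockout pools (log2-fold change 0.63, SE 0.32, adjusted p = 0.272). *ARID1A*, a subunit of the BAF complex, was at 161 and 181 CPM in control and 111, 141 and 151 CPM in knockout pools (log2-fold change −0.35, SE 0.29, adjusted p = 0.502). The groups were separate for both genes, in opposite directions. *SMARCA4*, the BAF ATPase BRG1, overlapped, at 619.7 and 1004 CPM in control and 450.3 to 779 CPM in knockout pools.

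**Figure D4:**
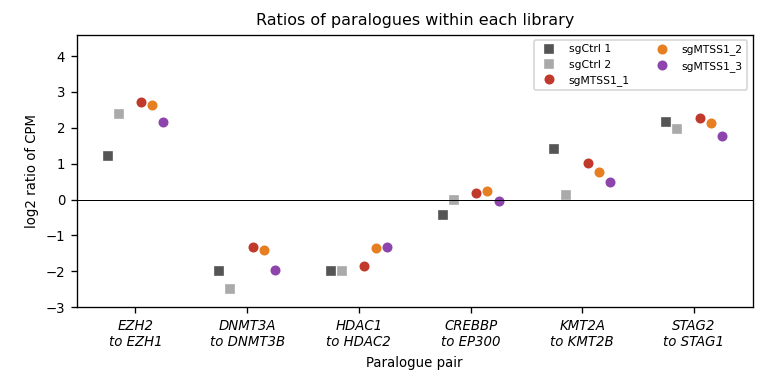
Log2 ratio of CPM within each library for 6 pairs of paralogues; squares are control pools and circles knockout pools. The groups do not overlap for *DNMT3A* to *DNMT3B* and for *HDAC1* to *HDAC2*, and the control pools are far apart for *EZH2* to *EZH1* and *KMT2A* to *KMT2B*.

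The knockout pools also differed among themselves. The sgMTSS1_1 pool had the lowest level of the 3 in 34 of the 45 genes (75.6%), against 39.4% of all tested genes, while the sgMTSS1_2 pool was lowest in 3 and the sgMTSS1_3 pool in 8. The exceptions included *HDAC2* and *EED*, for which the sgMTSS1_1 pool was the highest. That library was the deepest, with the lowest TMM factor of 0.876, and cytosolic ribosomal protein genes took 17.7% of its counts, against 11.9% and 13.9% in the other knockout and 7.55% and 9.30% in the control libraries. When these genes and the mitochondrial ones were left out of the scaling, *HDAC3* was again the only gene of the 45 to be called. Summed over the 44 genes other than *HDAC7*, the level was 6069 and 6694 CPM in control and 5731, 6572 and 6314 CPM in knockout pools, which overlapped.

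Chromatin modifiers are encoded by long transcripts, with a median canonical length of 6910 bases for the 45 genes and of 2754 bases for all tested genes. Across the 45 genes, which are not independent replicates and share the same libraries, the log2-fold change had a Spearman's rho of −0.36 and a Pearson's r of −0.54 with the log2 length, compared with −0.13 and −0.16 across 14353 tested genes. In the 13 genes with a transcript under 5000 bases, among them *HDAC3*, *EED*, *HDAC1* and *KAT2A*, the median log2-fold change was 0.35, with 5 genes above and 4 below control in all pools. In the 32 with longer transcripts it was −0.24, with 3 above and 10 below. The same split over all tested genes gave medians of 0.03 and −0.18, with 24.5% above and 17.5% below among the shorter and 14.1% above and 25.2% below among the 3196 longer transcripts. With offsets for GC content and length in the model, an alternative chosen after the data were seen, *HDAC3* was still the only one of the 45 called, but the median of the 45 genes was −0.06 against −0.12 over all tested genes. It thus lay 0.06 above that of all genes, where without offsets it lay 0.09 below. With the offsets 12 genes (26.7%) were above and 11 (24.4%) below control in all pools, against 20.7% and 23.3% of all tested genes.

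**Figure D5:**
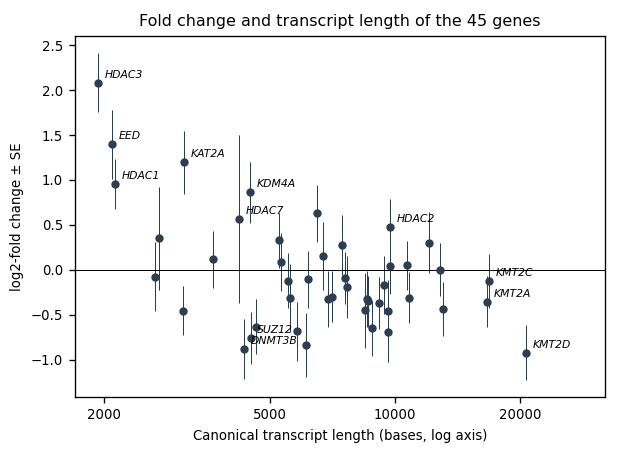
Log2-fold change (knockout over control, with its SE) against canonical transcript length in bases, on a log axis, for the 45 genes. *HDAC3*, *EED*, *HDAC1* and *KAT2A* are at the upper left, and *KMT2D*, at −0.92, is at the lower right.

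For context, 138 other genes of the same complexes and enzyme classes were listed by role, of which 136 were in the table and 132 were tested. Of the 132 tested, 1 was higher and 2 were lower past the thresholds, where 4.17% and 1.01% of all tested genes were. *SIRT2*, an NAD-dependent deacetylase, was at 8.44 and 12.5 CPM in control and 26.6, 27.8 and 36.2 CPM in knockout pools, and rose with a log2-fold change of 1.52 (SE 0.36, adjusted p = 0.0427). *RBBP4*, a histone chaperone shared by PRC2, NuRD and SIN3, was at 227 and 250.03 CPM in control and 72.9, 93.7 and 72.9 CPM in knockout pools, and fell with a log2-fold change of −1.58 (SE 0.28, adjusted p = 0.0186). *RING1*, a ubiquitin ligase of PRC1, was at 94.4 and 84.0 CPM in control and 21.4, 40.4 and 37.2 CPM in knockout pools, and fell with a log2-fold change of −1.44 (SE 0.34, adjusted p = 0.0422). The call of *RBBP4* was lost without any 1 of the knockout pools, that of *RING1* without any 1 of the libraries, and that of *SIRT2* without control pool 1 or any 1 of the knockout pools. *RBBP4* has 7 named pseudogenes, and since reads mapping to several places were removed, its level and those of 10 of the 45 genes with a named pseudogene, such as *KMT2C* with 6 and *HDAC1* with 2, are uncertain. All knockout pools lay above both control pools in 19 of the 132 genes (14.4%) and below in 42 (31.8%), with a median log2-fold change of −0.20.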

How the data were processed

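QuantSeq 3′ FWD libraries from 5 pools of TF-1 clones were analysed. The authors trimmed reads with BBDuk, aligned them to GRCh38 with HISAT2 2.1.0, removed reads not mapped uniquely with SAMtools 1.10, and deposited raw counts per Ensembl gene, without normalization. The counting program, annotation release, use of strand and treatment of duplicates are not given in the sources used here. sgCtrl pool 3 and the sgMTSS1_4 pool, which the authors excluded as outliers, were not analysed here.

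Counts were tested in R 4.3.3 with edgeR 4.0.16 (filterByExpr with a minimum count of 10, TMM, quasi-likelihood test with condition alone over all 5 libraries, Benjamini-Hochberg adjustment over 14391 genes). The script was tested on simulated data. Gene names came from GENCODE release 44, in which 27211 of 27328 genes have a symbol. The members and lists were chosen with earlier results of these data known. Genes are given in every library if they had an unadjusted p-value under 0.05 or separate groups, and others by mean or range. Alternatives were DESeq2 1.42.0, limma-voom 3.58.1, other scalings and filters, thinning, a replicate block, offsets fitted with mgcv 1.9.3, and each library left out. The floor of 3 counts covers counting error only, whereas each SE was derived from the quasi-likelihood test and includes the spread between pools. A further marker gene on the list is not reported here.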

Additional observations from a re-analysis of the deposited data

How the results depend on the processing

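The direction of the log2-fold change of *HDAC3* was the same in all 15 alternatives, and its adjusted p-value ranged from 1.12e-06 to 0.0591. Over all tested genes, 600 were higher and 145 lower, against 1010 and 333 with DESeq2, 1173 higher without a filter on low counts, 232 lower with library size alone, and 373 lower when GC content and transcript length entered as offsets (chosen after seeing the data); leaving out 1 library gave 107 to 917 higher and 4 to 432 lower. Of the 45 genes, 3 were called higher with DESeq2 and 3 without a filter (*EED*, *HDAC3* and *KAT2A*), and 0 to 4 with 1 library left out: 0 without the sgMTSS1_1 or the sgMTSS1_3 pool, 4 without control pool 1 (with *KDM4A*) and 3 without control pool 2 (*HDAC3*, *HDAC7* and *MEN1*). None was called lower in any alternative. The pool number, which is shared by 2 pairs of pools (Pearson's r of 0.17 between their differences), marks no shared handling in the sources used here, and as a replicate block it gave 2 genes called higher (*EED* and *HDAC3*). With 1 library left out, all knockout pools lay above control in 8 to 14 of the 45 genes (17.8% to 31.1%). The share over all tested genes was then 25.6% to 38.3%. All lay below in 11 to 23 of the 45 (24.4% to 51.1%), against 21.8% to 36.1% of all tested genes. Below control were 8 genes (17.8%) without a filter and 8 with at least 10 counts in every library, against 13.1% and 18.1%. Of the 132 other genes, the higher numbered 2 with DESeq2, 0 with voom, 0 with library size alone, 4 without a filter, 2 with at least 10 counts in every library, 0 with the block, 2 with the offsets and 0 to 2 with 1 library left out, and the lower 8 with DESeq2, 5 with the offsets and 0 to 7 with 1 library left out. The ratio differences ranged from 0.11 to 1.29 for *EZH2* to *EZH1* and from −0.66 to 0.62 for *KMT2A* to *KMT2B* with 1 library left out. Signs turned for *HDAC7* (−0.36 to 4.24), *MEN1* (−0.39 to 2.07), *KMT2B* (−0.96 to 0.38), *EZH2* (−0.57 to 0.74, with 0.74 without control pool 2 and 0.01 without sgMTSS1_3) and *MTSS1* (−1.04 to 0.16) with 1 library left out, and for *EZH2* with voom (0.058), no filter (0.077) and the block (0.13). The median over all tested genes moved from −0.03 to −0.17 with library size alone and to 0.11 without a filter, and that of the 45 genes lay 0.10 and 0.09 below it there, but 0.06 above it with the offsets. The cause of these changes was not tested. With 2 control pools, a control pool left out leaves 1, which is then assumed to vary like the knockout pools. A knockout pool left out leaves both control pools and fewer knockout pools.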

Other observations

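By role, the 132 other tested genes of the same complexes and enzyme classes differed in how their groups were separated. None of 15 partners of the acetyltransferases had all knockout pools above both control pools and 8 had all of them below (median log2-fold change −0.36). Among 23 partners of the remodellers, such as BAF and NuRD subunits, 2 were above and 10 below (median −0.38), and among 14 further demethylase genes 1 was above and 6 below (median −0.36). Of 10 genes around H3K79 and H3K36 methylation 1 was above and 5 were below (median −0.31). The 5 partners of the DNA methyltransferases had 3 above and 0 below (median 0.57), and the 12 of the H3K4 methyltransferases 4 above and 3 below (median 0.13). For 19 Polycomb, 17 deacetylase, 11 cohesin and 6 TET-related partners the medians were −0.01, −0.08, −0.10 and −0.05. In the same order, 3, 2, 2 and 1 were above and 4, 3, 3 and 0 below. The deacetylase partners above included *HDAC8*, at 28.5 and 44.4 CPM in control and 55.1, 58.9 and 47.0 CPM in knockout pools. These counts are descriptions beside the shares of 22.2% above and 19.2% below over all tested genes, and no role was tested against the others.

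Across the 45 genes, the log2 ratio of control pool 2 to control pool 1 had a Spearman's rho of 0.49 with the GC content of the canonical transcript, against 0.18 across 14353 tested genes. Without *HDAC7* it was 0.46 over 44 genes. The points share the same 2 libraries.

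At the 3′ end, within the last 500 bases, 11 of the 45 genes overlap a gene on the other strand, and for *DOT1L* and *KDM2B* the overlapping gene had the higher level. *PLEKHJ1* was at 44.6 to 96.3 CPM where *DOT1L* was at 22.4 to 42.3 CPM, and *RNF34* at 38.5 to 72.1 CPM where *KDM2B* was at 18.7 to 27.4 CPM. Lower levels were seen for *KDM4A-AS1* (10.1 to 17.9 CPM) and *EP300-AS1* (0.00 to 0.31 CPM). Whether strand was used in counting is not given in the sources used here, so reads of such pairs cannot be told apart.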
